A study of Mus musculus with 47 samples.

Results

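Reads on 4 genes of direct and large-pore communication between neurons were followed cell by cell: the connexin genes Gjd2 and Gjc1 and the pannexin genes Panx1 and Panx2. They were named as a set with earlier results of these data known, though not selected by their values, and are 4 of the 22800 gene symbols in the count table. The study asked how neuropeptide Y (NPY)-positive neurons in auditory cortex (AC) differ from those of hippocampal area CA3. After current-clamp recording in a brain slice, the cytosol of each fluorescent cell was drawn into the patch pipette and its polyadenylated RNA was turned into a sequencing library. Of the 47 libraries of the series, 26 were used here, namely 10 labelled NPY-positive of AC, 13 labelled NPY-positive of CA3 and 3 labelled NPY-positive of CA1. Mice of both sexes, 3 to 8 weeks old, came from a strain that carries a green fluorescent protein reporter for Npy, named NPY-hrGFP in the methods and NPY-EGFP in the series record, and received no treatment.

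The reporter marks any cell that uses the Npy promoter, so it does not by itself select neurogliaform cells. AC cells lay in L1 and L2 of coronal slices and CA3 cells in stratum lacunosum-moleculare of horizontal slices, so region and plane of section cannot be told apart. The 8 mice of the series are not named per cell. Each region was therefore taken as 1 sample, no test was made between regions, and every SD given is over cells and describes their spread only.

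Summed reads per cell ran from 1715012 to 6265431 in AC, from 2229519 to 7949918 in CA3 and from 601781 to 3202430 in CA1, with 3163 to 8149 genes detected per cell over the 26 cells. The GABAergic and neuronal markers Gad1, Gad2, Npy and Snap25 had reads in all 26 cells. Of 4 neurogliaform markers, Lamp5 had reads in 10 of 10 cells in AC, 12 of 13 in CA3 and 3 of 3 in CA1, Reln in 9, 11 and 3, and Ndnf in 7, 1 and 3. Nos1 was read in 7 AC and 10 CA3 cells and in none of CA1. A further AC column, N4X, matched cell N4 far more closely than any other pair of one region (Pearson r of log2 counts 0.984 against at most 0.304 in 399 other pairs) and was not counted as a cell.

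A gap junction channel joins the cytoplasm of neighbouring cells through paired rings of connexin subunits and lets current and small molecules pass. Cx36, the product of Gjd2, is the main connexin of electrical synapses between mammalian neurons, including GABAergic interneurons, and Cx45, the product of Gjc1, is a second connexin with reported neuronal use. Pannexins have the same membrane topology but mostly form channels of a single membrane, and Panx1 is known as a route of ATP release. Electrical coupling, with each other and with other interneuron types, is a known trait of neurogliaform cells.

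Gjd2 was read in few cells. Of the 10 AC cells, only N46 had reads, 46 in number or 14.2 counts per 1000000 reads of that cell (CPM). Of the 13 CA3 cells, N33 had 8 reads, N34 had 3, N38 had 323 and N39 had 808, which is 0.601 to 102 CPM. The other 9 CA3 cells, the other 9 AC cells and the 3 CA1 cells had none, so the ranges of all regions overlapped at 0.

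As shares of cells this was 10% in AC (exact Clopper-Pearson 95% interval 0.253 to 44.5%), 30.8% in CA3 (9.09 to 61.4%) and 0 of 3 in CA1, where the interval reaches 70.8%. These intervals take cells as independent draws, which cells of the same mouse may not be, and take a cell without a read as such and not as one without the transcript, so they describe the counts of cells only and no order of the regions is read from them. With every cell thinned to 601781 reads, the lowest total, in 1 random draw, the counts of cells stayed at 1, 4 and 0. Cells with few reads, such as N34 with 3, may keep or lose them in another draw, so this does not measure how stable the counts are. Every thinned value given here comes from this draw. Counting only cells with at least 10 reads left 1 AC and 2 CA3 cells.

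Summed over the region, Gjd2 stood at 1.35 CPM in AC (95% interval 0.989 to 1.80, exact Poisson) and at 23.4 CPM in CA3 (22.04 to 24.8), a ratio of 17.3. This ratio rested on 3 cells. N39 alone held 70.8% of the CA3 reads, and without it the ratio was 6.04. Without N38 and N39 the direction turned, with 0.295 CPM left in CA3 (0.147 to 0.529) and a CA3 to AC ratio of 0.219. Without N46, no AC read remained, and CA3 was at least 240-fold higher than the limit of 3 reads over the 9 other AC cells (a choice of cells made after their values were seen, as for every such ratio here). In CA1, 0 reads in 5034558 allow up to 0.596 CPM, by the same limit of 3 reads. These intervals and limits cover counting error only, since reads of amplified cDNA are not independent molecules.

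Per cell, the mean of log2(normalized count + 1), called the log2 level from here on, was 0.56 ± 1.78 (SD, n = 10) in AC and 1.60 ± 3.06 (SD, n = 13) in CA3 for Gjd2. The difference, AC minus CA3, was -1.04, which is smaller than the SD over cells in either region. The median of the 5964 genes read in 10 or more of the 23 AC and CA3 cells differed by -0.91, so relative to it Gjd2 differed by -0.13. Gjd2 itself, read in 5 of the 23 cells, was not among these 5964. The gene lies on the minus strand of chromosome 2 (114009601 to 114013619, GRCm38, ENSMUSG00000068615), and 57 of its 2879 exonic bases are also exonic in A530058N18Rik on the other strand. Whether counting used strand is not given in the sources used here.

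Cell N46 carried reads of other cell types beside its Gad1 and Npy reads. It had 1952 reads on the astrocyte glutamate transporter gene Slc1a3, 1192 on the myelin gene Mbp and 4137 on the microglial receptor gene Csf1r, with 0 on Aqp4 and Slc1a2. Of the marker lists, it showed 3 of 7 astrocyte genes, 1 of 6 oligodendrocyte genes, 4 of 6 microglial genes and 4 of 5 pyramidal cell genes. Over all 10 AC cells the summed astrocyte markers ran from 0 to 3237 CPM and the summed microglial markers from 0 to 3603 CPM. Their part in the AC reads of Gjd2 and Panx1 was not tested.

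The 4 CA3 cells with Gjd2 reads showed between 0 and 1 of the 7 astrocyte markers. In N33 and N38 all 7 were at 0, in N34 the sum was 0.2004 CPM and in N39 it was 660 CPM, all of it Slc1a2. N39 also had 4619 Mbp reads and the largest total of any cell, 7949918. Aqp4, Gfap and Sox9 were at 0 in all 5 cells with Gjd2 reads. Of the 4 neurogliaform markers, Lamp5 and Reln were read in all 5, Nos1 in 4 and Ndnf in none, and the list summed to 686 to 1834 CPM (median 926) against 280 to 7195 CPM (median 2020) in the 21 other cells. Of the 3 parvalbumin interneuron markers, Pvalb and Tac1 were at 0 in these 5 cells and the potassium channel gene Kcnc1 was read in each. That list summed to 32.9 to 329 CPM (median 176) against 0 to 755 CPM (median 49.3) in the 21 cells without Gjd2 reads, and the microglial list to 0.801 to 2503 CPM (median 121) against 0 to 3603 CPM (median 51.8). Cells with Gjd2 reads had totals of 3247495 to 7949918 and a median of 6085 detected genes, against 601781 to 6265431 and 5221 in the 21 cells without. The summed oligodendrocyte markers also ran higher in the cells with Gjd2 reads, at 51.5 to 1043 CPM (median 146) against 0 to 955 CPM (median 0.458), with Mog, Mag and Mobp at 0 in all 5. The part of these markers in the Gjd2 reads was not tested. Depth and Gjd2 reads moved together in this sense. The part of depth was not tested, since the thinned counts above are 1 draw.

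Gjc1 had no read in any of the 26 cells. Taken as independent draws, 0 of 26 cells allow a share of cells with a read of up to 13.2% by the exact Clopper-Pearson interval (11.5% by the limit of 3 counts), which is no limit on cells that hold the transcript. The summed reads allow 0.0341 CPM over all cells, or 0.0881 CPM in AC, 0.0614 CPM in CA3 and 0.596 CPM in CA1. The transcript was therefore not detectable at this depth in these cells. The gene (ENSMUSG00000034520) lies on the minus strand of chromosome 11 at 102799579 to 102819700. Among the libraries labelled NPY-positive of AC that were not used, N50 had 51 Gjc1 reads together with 0 Gad1 and 0 Npy reads, and N47 had 1.

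**Figure D1:**
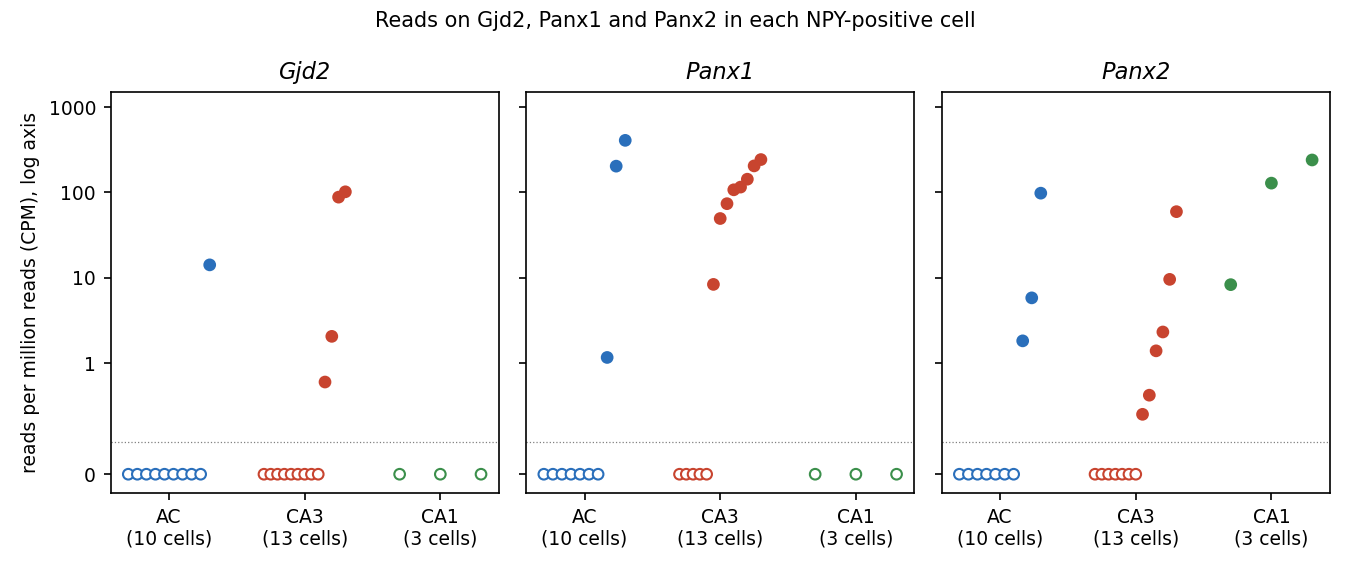
Each point is 1 cell, with its counts per 1000000 reads of the cell (CPM, log axis, 0 drawn at the bottom) for Gjd2, Panx1 and Panx2 in AC, CA3 and CA1. Most Gjd2 points lie at 0, with 5 cells above it, Panx1 is above 0 in 3 AC and 8 CA3 cells, and Panx2 is above 0 in all 3 CA1 cells.

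Panx1 was read in more cells than Gjd2. Of the 10 AC cells, N46 had 1322 reads (407 CPM), N8 had 1272 (203 CPM) and N4 had 2 (1.17 CPM), and 7 had none. Of the 13 CA3 cells, 8 had reads, from 36 in N40 to 1625 in N39, with 300 in N30, 872 in N31, 231 in N32, 192 in N33, 576 in N34 and 524 in N38. In CPM these 8 cells lay between 8.37 and 243, with a median of 111. N26, N27, N28, N29 and N37 had 0. The CA3 cells were thus either at 0 or well above a few reads, and the AC range reached both below and above the CA3 range.

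The share of cells with Panx1 reads was 30% in AC (exact interval 6.67 to 65.2%) and 61.5% in CA3 (31.6 to 86.1%). Thinned to 601781 reads, 2 AC and 8 CA3 cells kept reads. None of the 3 CA1 cells had a Panx1 read, which leaves an interval up to 70.8%.

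Summed over cells, Panx1 was at 76.2 CPM in AC (73.3 to 79.2) and 89.2 CPM in CA3 (86.5 to 91.8), a CA3 to AC ratio of 1.17. The ratio became 2.16 without N46, 1.87 without N8 and 0.876 without N39, so its direction depended on 1 CA3 cell. The log2 level averaged 2.22 ± 4.15 (SD, n = 10) in AC and 5.004 ± 4.27 (SD, n = 13) in CA3. The difference, AC minus CA3, was -2.78 (-1.87 relative to the median gene), which is less than either SD over cells. The log2 level weighs how many cells had reads, where the summed CPM weighs the cells with most reads.

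Of the 4 genes, Panx1 was the one read in 10 or more of the 23 cells, and it was at least 1 higher in CA3 on the log2 scale. It passed this filter with 8 of its 11 cells in CA3. Its place among these genes is thus not independent of its level in CA3, and nothing is read from the shares for it. Of the 5964 genes read in 10 or more of the 23 cells, 63.4% differed by at least 1 in either direction, 48.1% with CA3 higher and 15.4% with AC higher. A difference of at least 1 toward CA3 was thus common, and no share was computed at the size of the Panx1 difference. Among the 555 genes read in exactly 11 of the 23 cells, as Panx1 was, the median difference was -0.55, and 40.5% were at least 1 higher in CA3. In 181 of them (32.6%) at least as many of the 11 cells were CA3 cells as for Panx1.

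The 8 CA3 cells with Panx1 reads had totals of 2796256 to 7949918 and a median of 5894.5 detected genes, against 2229519 to 4268889 and 5699 in the 5 CA3 cells without. In the former, 6 of the 7 astrocyte markers were at 0 in every cell and the summed list ran from 0 to 660 CPM. In the latter it ran from 1.87 to 407 CPM. The summed microglial markers ran from 0 to 228 CPM with Panx1 and from 0 to 526.01 CPM without it. In the median over cells, the CA3 cells with Panx1 reads were thus lower than those without on the astrocyte list (0.216 against 191 CPM) and the microglial list (97.6 against 216 CPM), and higher on the oligodendrocyte list (47.4 against 7.18 CPM, with Mog, Mag and Mobp at 0 in the former) and the parvalbumin list (132 against 44.04 CPM). N31, the CA3 cell with the highest Panx1 CPM, had 231 Pvalb and 1087 Tac1 reads, the most of any of the 26 cells. The part of these markers in the Panx1 reads was not tested. In AC, by contrast, the cell with most Panx1 reads was N46, described above.

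Panx2 encodes a pannexin that is abundant in brain. It was the only one of the 4 genes with reads in every CA1 cell, where N1 had 5 reads (8.31 CPM), N6 had 158 (128 CPM) and N2X had 768 (240 CPM). Of the 10 AC cells, N4 had 168 reads (97.96 CPM), N5 had 11 (5.82 CPM) and N42 had 7 (1.82 CPM). Of the 13 CA3 cells, N37 had 254 reads (59.5 CPM), N32 had 30, N33 had 9, N40 had 6, N39 had 2 and N28 had 1. Both higher CA1 cells lay above all 23 cells of AC and CA3, while N1 lay within their range.

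The share of cells with Panx2 reads was 30% in AC (6.67 to 65.2%), 46.2% in CA3 (19.2 to 74.9%) and 3 of 3 in CA1 (29.2 to 100%). Counting only cells with at least 10 reads gave 2 of 10, 2 of 13 and 2 of 3. Thinning to 601781 reads gave 3, 4 and 3 cells.

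Between AC and CA3, Panx2 stood at 5.46 CPM (4.71 to 6.31) and 6.18 CPM (5.50 to 6.92) over the summed reads. The log2 levels were 1.58 ± 2.84 (SD, n = 10) and 1.55 ± 2.40 (SD, n = 13). The difference of 0.02 changed sign with the scaling, and it was 0.93 relative to the median gene. The mean CPM over cells was 10.6 ± 30.8 (SD) in AC and 5.65 ± 16.4 (SD) in CA3, so this measure was higher in AC where the summed one was higher in CA3. In each region 1 cell held most reads, N4 with 90.3% of those of AC and N37 with 84.1% of those of CA3. N4 also had the highest summed astrocyte markers of the AC cells, 3237 CPM from 5 of 7 genes with Aqp4 at 0, and their part in its Panx2 reads was not tested. Without N4, Panx2 in AC was at 0.557 CPM (0.330 to 0.880). Without N37, Panx2 in CA3 was at 1.08 CPM (0.794 to 1.43), below the value of all AC cells.

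In CA1, Panx2 reached 185 CPM over the summed reads (173 to 197), which was 33.9 times the AC value and 29.9 times the CA3 value. Without N2X these ratios were 16.3 and 14.4. They rose to 332 when N4 was left out of AC and to 172 when N37 was left out of CA3. The log2 level in CA1 was 7.76 ± 2.51 (SD, n = 3), higher than AC by 6.18 and than CA3 by 6.20, differences larger than the SD over cells in any of the regions. Relative to the median of 6597 genes read in 10 or more of the 26 cells (0.46 for CA1 minus AC and -0.43 for CA1 minus CA3), they were 5.71 and 6.63. The share of all genes with differences above their SDs over cells was not computed.

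Panx1 went the other way in the same 3 cells, with CA1 minus AC at -2.22 and CA1 minus CA3 at -5.004, from 0 reads in CA1. Against the limit of 3 reads over the CA1 cells, its summed CPM was at least 128-fold lower than in AC and at least 150-fold lower than in CA3. These bounds cover counting error only, and 7 of the 10 AC and 5 of the 13 CA3 cells also had 0 Panx1 reads. The bound against AC was 69.4 without N46, 1 of the AC cells with reads of other cell types, and 80.0 without N8. Without N2X, the deepest CA1 cell, the bounds were 46.6 against AC and 54.4 against CA3. Both pannexins were read in 10 or more of the 26 cells. Panx2, with 12, was so only through the 3 CA1 cells, since 9 of the 23 AC and CA3 cells had reads. Panx1, with 11, was so only through AC and CA3 cells, 8 of them in CA3. The place of either gene among these genes is thus not independent of its levels, and nothing is read from the shares for them. Of the 6597 genes, 68.5% differed by at least 1 between CA1 and AC, 41.4% with CA1 higher and 27.1% with AC higher. Between CA1 and CA3 69.8% did, 29.6% with CA1 higher and 40.2% with CA3 higher. Differences of at least 1 were thus frequent with 3 cells in 1 group, and no share was computed at the sizes of the pannexin differences. Of the 3 CA1 cells, 2 had totals below the lowest of the 23 AC and CA3 cells, N1 with 601781 and N6 with 1230347. The 3 CA1 cells showed 2 to 3 of 7 astrocyte markers, with sums of 155 to 1389 CPM and Aqp4, Aldh1l1 and Sox9 at 0, and their summed oligodendrocyte markers ran from 0 to 354 CPM, with a median of 267 CPM beside 0.229 in AC and 43.3 in CA3 and with Mog, Mag and Cnp at 0. The part of these in the Panx2 level was not tested.

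**Figure D2:**
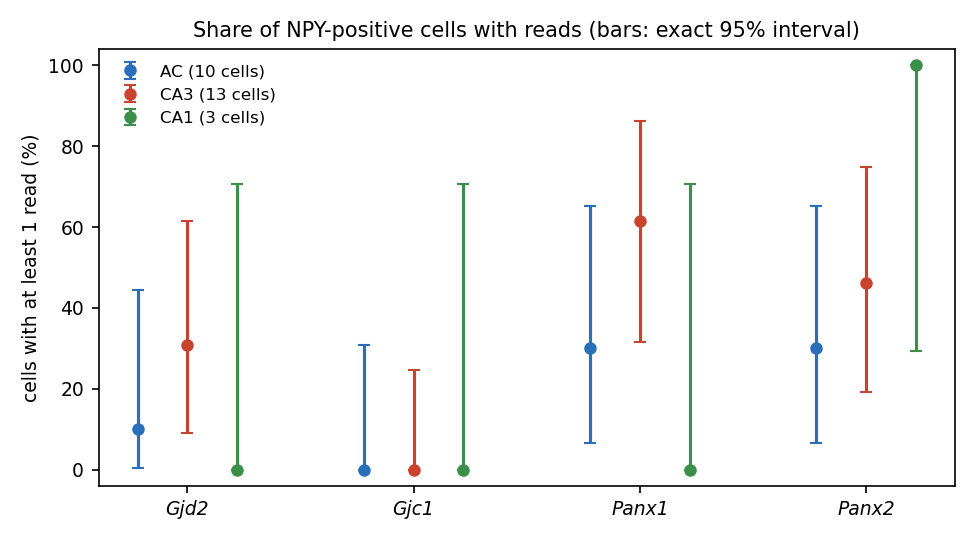
For each of the 4 genes, points give the percentage of cells with at least 1 read in AC (10 cells), CA3 (13 cells) and CA1 (3 cells), and bars the exact Clopper-Pearson 95% interval. The share for Gjd2 is 10% in AC and 30.8% in CA3, that for Panx1 30% and 61.5%, and Gjc1 is at 0 throughout.

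Per kb of merged exons, which allows genes to be compared, Panx1 had the highest level of the 4 genes in AC and CA3, at 12.6 and 14.8 reads per kb per 1000000 summed reads. In AC, Panx2 followed with 1.52 and Gjd2 with 0.469. In CA3, Gjd2 followed with 8.12 and Panx2 with 1.72. In CA1 the single gene with reads was Panx2 with 51.4, the highest of any gene and region here. Averaged over cells on the same scale, Panx1 was at 10.1 ± 22.8 (SD, n = 10) in AC and 12.04 ± 13.98 (SD, n = 13) in CA3, Gjd2 at 0.492 ± 1.56 and 5.14 ± 12.4, and Panx2 at 2.93 ± 8.55 and 1.57 ± 4.55. Every SD exceeded its mean, so no neighbours in these orders differed beyond the spread over cells. In CA1, Panx2 averaged 34.9 ± 32.2 (SD, n = 3).

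The cells with Gjd2 reads were a part of those with Panx1 reads. All 5 cells with Gjd2 reads, N33, N34, N38, N39 and N46, also had Panx1 reads, 6 cells had Panx1 reads alone and 15 had neither. In CA3 alone, 4 cells had both, 4 had Panx1 alone and 5 had neither. Over the 26 cells, which differ in depth, the log2 levels of both genes correlated with Pearson r 0.58 and Spearman rho 0.61. This is a description over cells, most of which hold 0 for Gjd2. The share of all genes read in each of the 5 cells was not computed. These cells had a median of 6085 detected genes against 5221 in the 21 without Gjd2 reads.

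Panx2 was distributed differently over cells. It shared 2 cells with Gjd2, N33 and N39, and 5 with Panx1, N4, N32, N33, N39 and N40. Its log2 level correlated with that of Panx1 at r -0.29 and with that of Gjd2 at r -0.23. Taken per cell, 8 cells had reads on none of the 4 genes, 10 on 1, 6 on 2, and 2, N33 and N39, on 3. Of the 8 cells with none, 5 were AC cells and 3 were CA3 cells, N26, N27 and N29.

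The promoter stretches of Gjd2 and Panx1, 250 bases before to 50 bases after the RefSeq start, are shown because every cell with Gjd2 reads also had Panx1 reads. They are chr2:114013570-114013869 and chr9:15045429-15045728 of GRCm38.p6, both on the minus strand, and are the 2 of the 4 genes matched in the RefSeq promoter table used here. Capitals mark a GC box (GGGCGG) and a cyclic AMP response half-site (TGACG, which reads CGTCA on the other strand).

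Gjd2: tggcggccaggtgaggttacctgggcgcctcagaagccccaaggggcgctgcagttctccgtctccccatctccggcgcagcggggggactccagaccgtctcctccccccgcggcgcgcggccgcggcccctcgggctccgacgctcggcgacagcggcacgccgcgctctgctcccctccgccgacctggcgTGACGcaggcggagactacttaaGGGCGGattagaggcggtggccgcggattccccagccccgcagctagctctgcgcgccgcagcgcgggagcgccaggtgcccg

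Panx1: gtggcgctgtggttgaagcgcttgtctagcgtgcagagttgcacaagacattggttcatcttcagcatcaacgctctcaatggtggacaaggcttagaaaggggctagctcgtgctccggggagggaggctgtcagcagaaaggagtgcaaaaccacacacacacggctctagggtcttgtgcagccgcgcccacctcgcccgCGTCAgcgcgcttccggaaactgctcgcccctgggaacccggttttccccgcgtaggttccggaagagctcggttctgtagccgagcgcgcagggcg

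Both stretches hold 1 half-site, on opposite strands, a match that 21.0% of 27025 promoters of this length have. Gjd2 holds 1 GC box and Panx1 none, against 35.9% of promoters. Panx1 holds 1 CCAAT box (CCAAT, read on either strand and left in lower case) and Gjd2 none, against 37.9%, and neither holds a TATA box (TATAAA), found in 14.2%. The Gjd2 stretch is 75% G or C and that of Panx1 61.3%, beside a median of 52.7% and a 90th percentile of 69.3% over the 27025. These matches describe letters only and name no factor at work in the cells. Panx1 itself (ENSMUSG00000031934) spans 15002128 to 15045478 on chromosome 9, and Panx2 (ENSMUSG00000058441) spans 89059734 to 89073567 on the plus strand of chromosome 15.

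Of the 5964 genes, those whose log2 levels over the 23 AC and CA3 cells were most like Gjd2 were D5Ertd579e (Pearson r 0.74), Rcc2 (0.66) and Rfx1 (0.64). Rcc2 had reads in all 5 cells with Gjd2 reads, and in 12 cells in all. For Panx1 they were Pkig (0.71), Katnal1 (0.69) and Atg7 (0.68), and Pkig had reads in all 11 cells with Panx1 reads and in 16 in all. For Panx2 they were Tbc1d22b (0.66), Gramd1b (0.65) and Klc2 (0.64). These are the highest of 5964 values each, with r given as a description.

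The other connexin genes were nearly silent in the neurons. Of 18, 15 had no read in any of the 26 cells, and none of the others had reads in 10 or more of the 23 AC and CA3 cells. Gja1, which encodes the astrocyte connexin Cx43, had 1579 reads in N46 and 1 in N44, none in CA3, and 177 in the CA1 cell N1. Without N46, the AC value fell from 46.4 CPM to 0.0325 CPM, a count of 1 read. Gja5, a connexin gene known from heart and vessels, had 6 reads in 2 AC cells, 119 in 2 CA3 cells, of which 117 were in N38, and 1 in CA1. N38 and N46 were thus the cells with reads on 2 connexin genes.

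**Figure D3:**
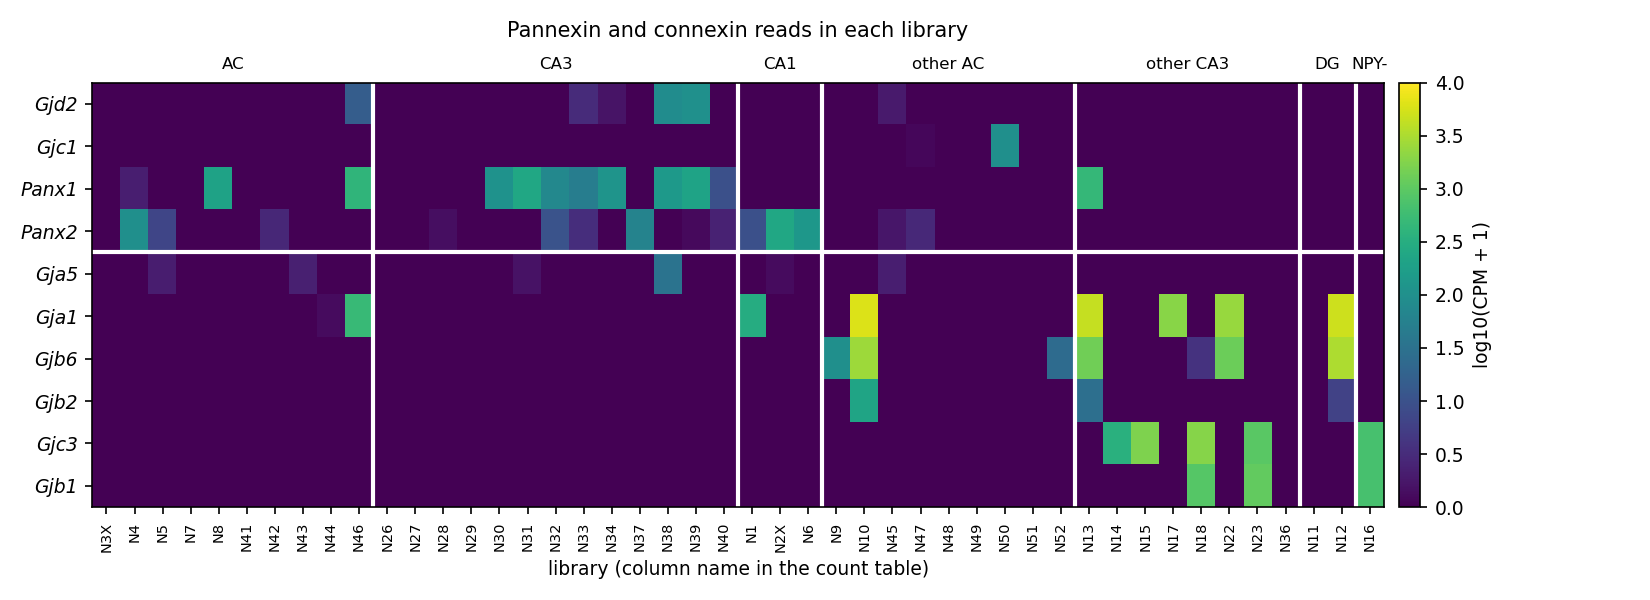
Each column is 1 library and each row 1 of 10 pannexin or connexin genes, with log10(CPM + 1) in colour, for the 26 neurons used and the libraries not used. In the 26 neurons colour appears mostly in the Panx1 and Panx2 rows and, in 5 cells, in that of Gjd2, while Gja1, Gjb6, Gjb1 and Gjc3 are coloured mostly in libraries without Gad1 reads.

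The 20 libraries not used (N4X left out) had 40934 to 6235022 reads, 15 of them below the lowest total of the 23 AC and CA3 cells, and 4 had at least 10 Gad1 reads. On the 4 genes they had few reads, 5 for Gjd2 in N45, 99 for Panx1 in N13, and 4 and 12 for Panx2 in N45 and N47, beside the Gjc1 reads given above. N13, labelled NPY-positive of CA3, had 0 Gad1 and 345 Aqp4 reads. N45 and N47, with 10339 and 5703 Gad1 reads, were the libraries with the other reads on the 4 genes except N50.

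Other channels that open large pores were followed from a list of 12 genes. Of these, 6 had reads in the 23 cells and 2 were read in 10 or more cells, with 0 higher in AC and 1 higher in CA3 by at least 1 (beside 15.4% and 48.1% of all 5964 genes, with a median difference of -0.91 in both). The gene higher in CA3 was Lrrc8a, the obligatory subunit of the volume-regulated anion channel, with reads in 4 AC and 6 CA3 cells and log2 levels of 1.56 ± 2.88 and 3.33 ± 3.93 (SD). The other was Lrrc8b, a partner subunit, with a difference of -0.06. Panx3, the remaining pannexin gene, had no read in the 26 cells. Lrrc8c differed by 0.31 and Fam26e, of the calcium homeostasis modulator family, by -1.38, both read in fewer than 10 cells. No difference here exceeded the SD over cells.

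Of 12 genes of proteins that bind or modify connexins, 11 had reads and 8 passed the filter. Of these, 4 were higher in AC and 3 in CA3 by at least 1, beside 15.4% and 48.1% of all 5964 genes, and the median difference was 0.25 beside -0.91. Nbea, which encodes neurobeachin, a protein that acts in the delivery of electrical and chemical synapse components, had reads in 6 AC cells of 10 and 12 CA3 cells of 13. Its log2 level was 2.43 ± 2.64 (SD) in AC and 6.57 ± 3.55 (SD) in CA3, and the difference of -4.14 exceeded both SDs. The share of all genes for which this holds was not computed. Camk2b, a subunit of the kinase that binds Cx36, was higher in AC by 2.86, Mllt4, which encodes the junction scaffold afadin, by 2.54, and Mpdz, which encodes the scaffold MUPP1, by 1.65. The kinase gene Camk2a, named after its values were seen, was the other such gene, with 1.14. Each of these 4 differences was smaller than the SD over cells in at least 1 region, with CA3 SDs of 3.48, 4.33, 2.84 and 3.38 in the order given.

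The calmodulin genes Calm2 and Calm3, whose product binds Cx36, were read in all 26 cells. Calm2 differed by -1.45 and Calm3 by -2.47. They encode the same protein, and reads may in part be shared between them. Tjp1, named after its values were seen, encodes ZO-1, the scaffold that binds Cx36 at electrical synapses. In AC it had 1 read, in N42, and in CA3 it had 233 in N26, 2 in N34, 159 in N37 and 536 in N38. N34 and N38 were among the cells with Gjd2 reads, and N33, N39 and N46 had no Tjp1 read.

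Of 24 genes of extracellular ATP and adenosine signalling, into which Panx1 channels feed, 13 had reads and 2 passed the filter. The adenosine transporter gene Slc29a1 was higher in AC by 1.07, beside 15.4% of all 5964 genes that were so by at least 1, and Slc29a2 differed by 0.40. For Slc29a1 the SD over cells was 4.41 in AC and 4.46 in CA3, far above its difference. The ATP-gated channel genes P2rx3, P2rx4 and P2rx6 were read in 1, 2 and 2 AC cells and in 5, 3 and 6 CA3 cells, and none had a read in CA1. P2rx7, a receptor gene often tied to Panx1 and named after its values were seen, had 14 reads in 2 AC cells and none in CA3.

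**Figure D4:**
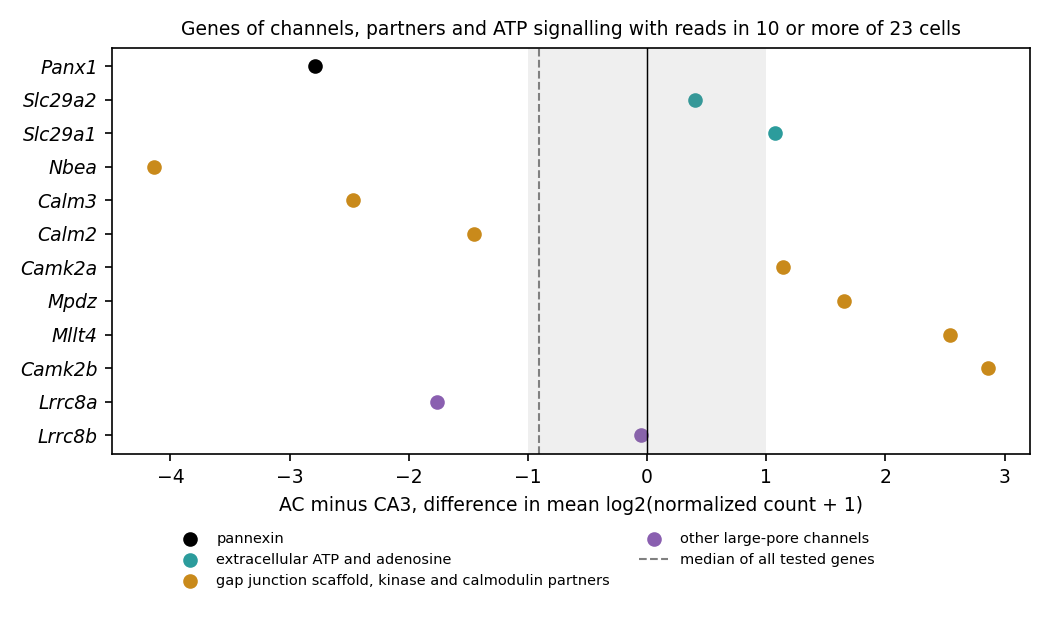
Points give the difference in mean log2(normalized count + 1), AC minus CA3, of Panx1 and of 11 list genes read in 10 or more of the 23 cells. Panx1 at -2.78 and Nbea at -4.14 lie toward CA3 and Camk2b at 2.86 toward AC, beside the median of all 5964 genes at -0.91 (dashed line), and grey marks differences smaller than 1.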

How the data were processed

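Single-cell libraries were made by the authors with Nextera XT from cDNA of aspirated cytosol. The deposited table holds raw read counts per gene symbol, which the authors made by trimming (Trimmomatic, Flexbar), alignment with STAR to GRCm38 and counting, with HTSeq per the methods and featureCounts per the submitters' processing notes. Where identifiers shared a symbol, the authors averaged their counts. No normalization preceded deposit.

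Size factors were computed with scran 1.30.0 (pools of 10 and 20 cells) in R 4.3.3 over the 26 cells, and log2(count / size factor + 1) was averaged per region. A difference of at least 1 between means counts as a difference in the shares given. Genes entered those shares with a read in at least 10 cells. Doublets were not called, since each cell was aspirated singly. Alternatives used edgeR 4.0.16 and DESeq2 1.42.0 factors only, with no model. The difference script was tested on simulated data. Python 3.11.15, scipy 1.17.1 and matplotlib 3.10.9 were used. Coordinates and exon lengths come from GENCODE vM21 (GRCm38), matched by symbol for 106 of 106 genes, and promoters from RefSeq.

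The 4 genes, the lists and the sizes used were chosen with earlier results of these data known. Named are the 4 genes, of each list the 4 genes with the highest mean level and the 2 with the largest difference each way among those read in at least 5 of the 23 cells, and the 3 genes most like each of the 4. Marker lists served as checks. Over the 23 cells the marker lists gave, among genes that passed the filter, 1 of 6 NPY-positive GABAergic, 2 of 3 neurogliaform and 1 of 3 microglial genes higher in AC by at least 1 (15.4% of all genes), and 1 of 6 GABAergic genes higher in CA3 (48.1% of all genes). The 1 astrocyte and 1 parvalbumin interneuron gene that passed differed by less, and no oligodendrocyte or pyramidal cell gene passed. Glial genes below the filter differed by more, AC minus CA3. Slc1a3 differed by 4.40, Cx3cr1 by 3.05, Sox9 by 2.57 and Aldoc by 1.86, and the other way Mbp by -3.02 and Cnp by -1.19. Some genes of the lists are not reported here by name.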

Additional observations from a re-analysis of the deposited data

Results flagged for a closer look

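In AC, the Gjd2 log2 level of 5.64 in N46 stood apart from the other 9 cells, all at 0, and the same cell stood apart for Gja1 with a log2 level of 10.71. The Panx2 log2 level of 8.33 in N4 stood apart from the other AC cells, with a gap of 0.493 of the whole range against a critical value of 0.466. These gaps were measured against Dixon's 95% critical value, which about 1 group in 20 passes by chance where values are normally spread. For Gjd2 all other cells were at 0, so the gap equals the whole range whatever the level in N46, and that rate does not hold for such mostly zero values. Outside the comparisons, N12, labelled NPY-positive of the dentate gyrus, had 951 Gja1 reads with 317 Aqp4 reads and 0 Gad1 reads. No test bears on the source of any of these.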

How the results depend on the processing

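The difference in Gjd2 between AC and CA3 kept its direction under every scaling, pseudocount, thinning and choice of cells planned, and it was larger as a log2 ratio of summed CPM (-4.11) or of mean CPM (-3.38) and with a pseudocount of 0.1 (-1.67). It fell below a size of 1 with a pseudocount of 10 (-0.58), with thinning (-0.64), with all cells labelled NPY-positive (-0.55) and, narrowly, with DESeq2 factors. Relative to the median gene it turned to 0.64 with all cells labelled NPY-positive. With those cells, Gjc1 differed by 0.52, from N47 and N50. Only 2 CA3 cells had at least 10 Panx2 reads. The Panx2 difference between AC and CA3 became -0.02 with edgeR factors or library size, -0.37 with a pseudocount of 0.1 and -0.18 as a log2 ratio of summed CPM, and it was 0.90 as a log2 ratio of mean CPM. Leaving out each cell in turn, AC minus CA3 ranged from -1.60 to -0.48 for Gjd2, stayed at 0 for Gjc1, and ranged from -3.70 to -2.38 for Panx1 and from -0.73 to 0.53 for Panx2. CA1 minus AC ranged from -2.47 to -1.31 for Panx1 and from 5.21 to 7.59 for Panx2, and CA1 minus CA3 from -5.42 to -4.61 and from 5.23 to 7.62. With a pseudocount of 10, Panx1 differed by -1.63 between AC and CA3, by -1.38 for CA1 minus AC and by -3.01 for CA1 minus CA3, and Panx2 by 3.83 and 3.96 for CA1 minus AC and minus CA3, all in the same direction as before. The ratio of summed Gjd2 CPM, CA3 over AC, turned to 0.219 without N38 and N39 and was 6.04 without N39. Of the values recomputed other than by leaving out cells, 99 moved by less than the SD over cells, stayed within the exact interval of their share (cells with reads) or, for the share of all genes, moved by less than 1.5 times. The 4 that did not are both Gjd2 ratios, the Gjc1 difference and the CA3 cells with at least 10 Panx2 reads. These intervals are wide, so several counts or shares of cells within them still moved by 1.5 times or more. CA3 cells with Gjd2 went from 4 to 2 at 10 reads, AC cells with Panx1 or Panx2 from 3 to 2 at 10 reads, and CA3 cells with Panx2 from 6 to 4 when thinned. With all labelled cells (19 in AC and 21 in CA3), the share with Panx1 went from 30% to 15.8% in AC, that with Gjd2 from 30.8% to 19.05% and that with Panx2 from 46.2% to 28.6% in CA3, and that with Gjc1 from 0 to 10.5% in AC. The alternatives for CA1 and for the ratios were added after seeing the data. Depth limits CA1 most, where 0 reads allow 0.596 CPM. No paired analysis was possible because replicate numbers only name cells and no label ties cells to mice.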

Other observations

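The libraries that were not used held the connexin genes of glia. Gja1 had 2059 reads in N10, 951 in N12, 957 in N13, 242 in N17 and 748 in N22, and each of these 5 libraries had Aqp4 reads, from 309 to 616, and 0 Gad1 reads. Gjb6, which encodes the second astrocyte connexin Cx30, had 857 reads in N10, 619 in N12, 290 in N13 and 382 in N22. The oligodendrocyte connexin genes Gjb1 and Gjc3 were read together in N16, N18 and N23, at 203 to 445 and 200 to 637 reads. N16 carries the NPY-negative label of CA3 and N18 and N23 the NPY-positive one.

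Lrrc8b, a subunit gene of the volume-regulated anion channel, was, like Panx2, read in all 3 CA1 cells. It had 313 reads in N1, 538 in N6 and 3248 in N2X, or 814 CPM over the summed CA1 reads, beside 29.1 CPM in CA3 and 23.6 CPM in AC. The CA1 value rested mostly on N2X, which also held 82.5% of the CA1 reads of Panx2. The share of all genes read in all 3 CA1 cells was not computed. The AC cell with most Panx2 reads, N4, also had the most Lrrc8b reads of AC, 488 of 803. This was noticed in the values and was not tested.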
